A study of Mus musculus with 10 samples.

Results

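The messenger RNAs of 9 genes with which neutrophils roll on, adhere to and cross the vessel wall were followed in neutrophils from grafted mouse squamous cell carcinomas. They were Selplg, Cd44, Itgb2, Itgam, Itgal, Itgax, Itga4, Cd177 and Fpr1. The genes were taken by their GENCODE M21 symbols, and these are 9 of the 55385 mouse genes in the deposited table. All 9 were measured in every library and all 9 passed the filter of a mean of at least 5 CPM (read counts brought to a common library size), which 11274 genes passed.

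The tumours grew from parental squamous carcinoma cells low in Sox2 (control; their library descriptions add GFP) or from cells high in Sox2 (Sox2Hi), and the library descriptions of both give C57; Sox2 is a stem cell transcription factor. The hosts of both grafts were CatchupIVM-red mice, in which Tomato marks neutrophils through the Ly6g locus, and Tomato+ cells were isolated. Tumours were left naive or the mice received anti-PDL1/CD40 agonist, which gave 3 naive and 2 treated libraries from control grafts and likewise 3 naive and 2 treated libraries from Sox2Hi grafts. The question asked of the design was whether Sox2 in tumour cells alters the state of these neutrophils and their response to the therapy. The labels give no age, dose or day, and they do not say whether mice were pooled, whether the Sox2Hi cells are 1 clone, or which libraries came from separate mice. The p-values measure the spread between these libraries. Ddx3y, a gene of the Y chromosome, had 4 to 8 reads in 4 libraries and 1007 to 6618 in the other 6, and each group held libraries of both kinds. The libraries of a group thus did not all come from the same animals, and the labels give no sex. Among the naive libraries the kinds followed the replicate number, with 4 and 6 reads in replicate 1 of control and Sox2Hi grafts, 3854 and 2814 in replicate 2 and 1436 and 1007 in replicate 3.

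Neutrophils leave blood in steps. They roll on selectins, which bind sugars carried by the Selplg product PSGL-1 and by CD44. Chemoattractants such as formyl peptides, sensed by the Fpr1 receptor, then switch the beta2 integrins to a binding state, and the cells arrest, crawl and pass between endothelial cells. Each beta2 integrin pairs the Itgb2 chain with an alpha chain, which is Itgal in LFA-1, Itgam in Mac-1 and Itgax in CD11c/CD18. Itga4 pairs with another beta chain in VLA-4, and Cd177 encodes a neutrophil surface protein that can associate with Mac-1 and bind PECAM-1.

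Total counts of mouse genes ran from 13815734 to 22986193 per library. The tdTomato sequence was counted in every library, at 135 to 514 reads. The 20 neutrophil marker genes made up 1.70 to 2.65% of counts in the naive and 3.70 to 3.82% in the treated libraries of control grafts. In Sox2Hi grafts they made up 1.76 to 2.42% (naive) and 2.31 to 2.68% (treated), and none of them was at 0 throughout a group. Ly6g itself was low, with group means of 2.47, 14.6, 2.40 and 8.06 CPM, the first pair being the naive and treated control libraries and the second those of Sox2Hi grafts. Of the 20, 18 were called higher with treatment in control grafts (median log2 difference 2.02) and 12 in Sox2Hi grafts (median 1.35). Between the treated grafts 10 of the 20 were called lower in Sox2Hi grafts (median -0.86), and their median interaction was -0.80, with none of the 20 called. The 6 fibroblast markers fell from 0.0300-0.0869% to 0.00624-0.00714% of counts in control grafts, where all 6 were called lower, and from 0.0542-0.0810% to 0.00848-0.0326% in Sox2Hi grafts, where 4 were. Erythroid and platelet markers went from 0.0709-0.170% to 0.00630-0.0248% of counts in control grafts, where 3 of 6 tested were called lower, and from 0.0341-0.0746% to 0.00608-0.00873% in Sox2Hi grafts, where 4 were. All 3 mast cell and basophil markers tested were called lower with treatment in control grafts and none in Sox2Hi grafts. B and plasma cell markers made up 0.00678-0.0124% of counts in control naive and 0.0168-0.0809% in Sox2Hi naive libraries, with none of 4 tested called in any comparison. The 12 macrophage and monocyte markers made up 0.0871 to 0.176% of counts in any library, but 4 of them were called higher with treatment in each graft. Ly6c2, a monocyte gene, went from means of 24.5 to 427 CPM in control and from 19.4 to 159.9 CPM in Sox2Hi grafts, and the chemokine receptor gene Ccr2 from 50.7 to 204 and from 40.5 to 138 CPM. Of the 6 T and NK cell markers tested, 3 were called higher in control and 1 in Sox2Hi grafts. The 10 on that list summed to 0.00558-0.00971% (naive) and 0.00914-0.0321% (treated) of counts in control grafts and to 0.00438-0.0167% and 0.0136-0.0269% in Sox2Hi grafts. Monocytes, T cells and NK cells also express Itgal, Itgb2 and Selplg, and monocytes Itgam. Reads expected from the rate over 1464 silent receptor genes equalled 5.02 to 8.37% of counts in the naive and 1.58 to 1.74% in the treated libraries of control grafts. In Sox2Hi grafts they equalled 3.63 to 3.92% (naive) and 4.04 to 4.96% (treated). The part of these shifts in the results below was not tested. In bulk RNA, fewer cells of a type and less RNA per cell cannot be told apart.

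The upstream sequences of 3 genes are shown, from those with a promoter window in the table used here. Among those genes, Fpr1 and Itgam had the largest treatment differences in control grafts, and Cd177 was called between naive grafts. Selplg and Itgb2, whose treatment differences there were larger than that of Itgam, had no window. Each window runs from 250 bases before to 50 bases after the RefSeq start in GRCm38.p6, on the strand of the gene. The RefSeq promoter table used here held such a window for 6 of the 9 genes. Capitals mark GAGGAA, the core bound by the myeloid factor PU.1, or its reverse complement TTCCTC.
Itgam, chr7:128062390-128062689, plus strand: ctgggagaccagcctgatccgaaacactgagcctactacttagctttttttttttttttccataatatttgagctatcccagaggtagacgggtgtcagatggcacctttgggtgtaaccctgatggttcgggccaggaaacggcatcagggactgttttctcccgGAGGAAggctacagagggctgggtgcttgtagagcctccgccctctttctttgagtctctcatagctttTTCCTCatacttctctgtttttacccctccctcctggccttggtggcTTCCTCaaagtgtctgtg
Cd177, chr7:24760262-24760561, minus strand: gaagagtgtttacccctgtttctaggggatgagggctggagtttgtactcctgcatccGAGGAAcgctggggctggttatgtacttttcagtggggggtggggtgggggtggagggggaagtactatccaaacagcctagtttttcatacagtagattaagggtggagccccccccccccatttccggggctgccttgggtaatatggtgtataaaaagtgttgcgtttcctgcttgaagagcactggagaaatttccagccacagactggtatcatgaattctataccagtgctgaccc
Fpr1, chr17:17883890-17884189, minus strand: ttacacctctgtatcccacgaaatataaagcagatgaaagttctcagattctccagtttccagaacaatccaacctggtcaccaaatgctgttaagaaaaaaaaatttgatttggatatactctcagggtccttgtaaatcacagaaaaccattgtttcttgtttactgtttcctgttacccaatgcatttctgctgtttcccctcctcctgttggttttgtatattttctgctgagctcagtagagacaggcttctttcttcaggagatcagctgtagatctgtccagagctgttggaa
Itgam held 3 matches, which begin at -84, -15 and 32 relative to the start, Cd177 held 1 at -192, and Cd44 (not shown) held 2, at -243 and -220. Over all 32851 RefSeq promoters of this length, 28.3% held at least 1 match on either strand. Itgax, Itga4 and Fpr1 held none. Neither TTGCNNAA (C/EBP; 10.8% of promoters), 2 GAAA repeats spaced by 2 bases (interferon response element; 3.44%) nor TTCNNNGAA (STAT; 8.30%) was found in any of the 6 windows. These 4 patterns were searched on both strands. No window held more than 1 of the 4 patterns, so no matches of different patterns overlapped.

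Levels between genes were compared per kb of exon. Cd44 and Fpr1 stood highest in all 4 groups. Cd44 led in the naive groups, with 202 ± 18.3 CPM per kb in control naive (SD, n = 3) against 110 ± 21.0 for Fpr1. In control treated libraries Fpr1 led, with 668 ± 76.96 CPM per kb (SD, n = 2) against 302 ± 15.4 for Cd44. In Sox2Hi treated ones the SDs of the 2 genes overlapped (246 ± 31.9 and 193 ± 34.9, SD, n = 2), with Fpr1 above Cd44 within each library. Itgb2 and then Selplg came next in every group, with 49.99 ± 12.2 and 30.8 ± 8.79 CPM per kb in control naive. The SDs of these 2 neighbours overlapped in the control grafts, but within each control library Itgb2 was above Selplg per kb. Itgam followed in every group, at 13.4 ± 3.10 CPM per kb in control naive. Itgax (6.23 ± 1.88), Itga4 (5.93 ± 1.57), Itgal (3.80 ± 1.23) and Cd177 (2.69 ± 0.766) followed in control naive libraries, and the SDs of neighbours overlapped. Within each of these libraries Itga4 was above Itgal and Itgal above Cd177, while the order of Itgax and Itga4 varied. Among the alpha chains that pair with Itgb2, Itgam was thus the most abundant message in every group, and the mean of Itgax was above that of Itgal in both naive groups and below it in both treated groups.

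**Figure D1:**
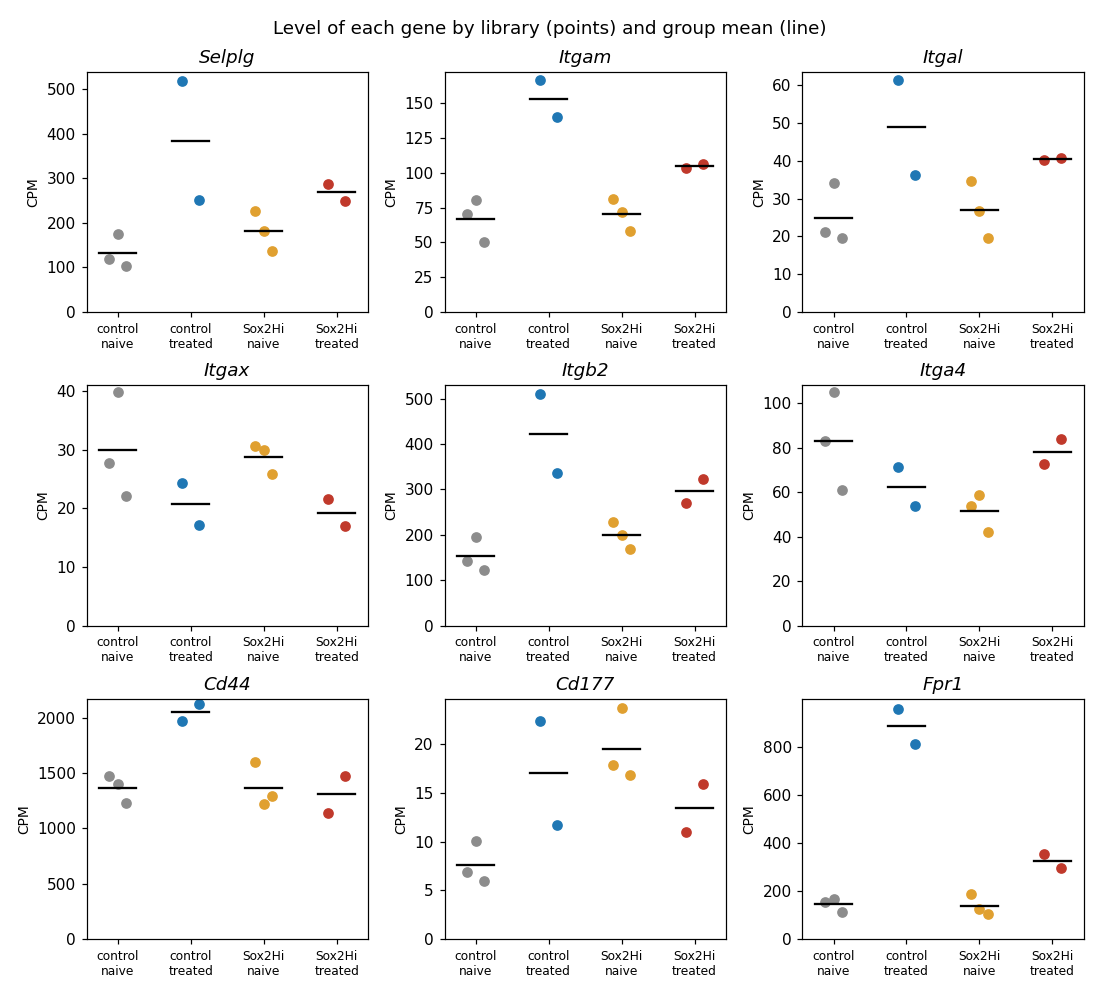
CPM of each of the 9 genes in every library, on the scaling from expressed genes, with 1 point per library and a line at the group mean. Fpr1 is at 813 and 957 CPM in the control treated libraries and at 295 to 355 CPM in Sox2Hi treated ones, while Cd177 is lowest in the control naive group.

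Most of these genes were higher in treated than in naive control libraries, as were 18 of the 20 neutrophil markers (median 2.02, given above). In the edgeR quasi-likelihood fit, 7 of the 9 were called higher (adjusted p under 0.05) and none lower, against 24.1% of the 11274 genes tested called higher and 33.1% called lower. Their median log2 fold change was 1.16, beside -0.18 over all genes tested, and 0.75 without control treated 1, where 5 were called higher. At an unadjusted p under 0.05, and by DESeq2, none was lower either. Without control naive 3, however, 5 were called higher and 2, Itgax and Itga4, lower. In Sox2Hi grafts 1 of the 9, Fpr1, was called higher and none lower (at an unadjusted p under 0.05, 4 higher and 1 lower; DESeq2, 1 and 0), against 15.0% and 6.57% of all genes, with a median of 0.58 beside 0.09. The groups did not overlap for 7 of the 9 genes in control grafts, where 68.4% of all genes tested had no overlap, and for 8 of the 9 in Sox2Hi grafts, where 62.4% had none. Fits scaled from all 29648 genes that pass a looser filter, called the all-gene scaling here, also called 7 genes higher in control and 1 higher in Sox2Hi grafts, and none lower, with medians of 1.71 and 0.31. That scaling moved the median log2 fold change of the shared genes by 0.55 in control and by -0.27 in Sox2Hi grafts. It gave 5545 genes higher and 4533 lower with treatment in control grafts (18.7% and 15.3% of those tested), where the scaling from expressed genes gave 2720 and 3736. In Sox2Hi grafts it gave 531 and 539 (1.79% and 1.82%), where the other gave 1692 and 741.

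Between grafts, 1 of the 9 genes (Cd177) was called higher in naive Sox2Hi than in naive control libraries and none lower, against 2.10% and 11.9% of all genes tested (unadjusted, 1 higher and 1 lower; DESeq2, 1 and 0). In a fit of the 6 naive libraries blocked by replicate number, 2 were called: Cd177 higher and Itga4 lower, and genes called went from 1576 to 2478. In treated libraries 2 of the 9, Fpr1 and Cd44, were called lower in Sox2Hi grafts and none higher, against 5.87% and 15.0% of all genes (unadjusted, 3 lower and 0 higher; DESeq2, 3 and 0). The groups did not overlap for 2 of the 9 in naive and 5 of the 9 in treated libraries, against 32.5% and 60.6% of all genes. The graft by treatment interaction, which is the treatment effect in Sox2Hi minus that in control grafts, was called for Cd177 and Fpr1, both below 0, against 2.84% of genes below and 16.9% above 0 (unadjusted, 4 below and 1 above; DESeq2, 6 and 0). The medians of the 9 were 0.07, -0.51 and -0.65 in these 3 comparisons, beside -0.05, 0.04 and 0.02 over all genes, and 0.46, -0.95 and -1.47 on the all-gene scaling. With 1 library left out the naive median ran from -0.098 (without Sox2Hi naive 1) to 0.31 (without control naive 2), so it had no steady sign. The treated median was 0.0022 without control treated 1 and -0.79 without control treated 2, and the interaction median was -1.04 without Sox2Hi treated 2. On the all-gene scaling the calls among the 9 were 1 higher in naive, 4 lower in treated and 8 below 0 in the interaction, where 1.66%, 9.57% and 16.2% of 29648 genes were called in those directions and 0.209%, 4.18% and 11.3% in the opposite ones. It shifted the median of the shared genes by 0.37, -0.45 and -0.82. Genes called higher and lower then numbered 492 and 62 in naive, 1240 and 2836 in treated libraries and 3343 and 4806 for the interaction, in place of 237 and 1339, 1691 and 662, and 1908 and 320. The comparisons share groups of libraries, and they are set side by side, not as independent observations.

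**Figure D2:**
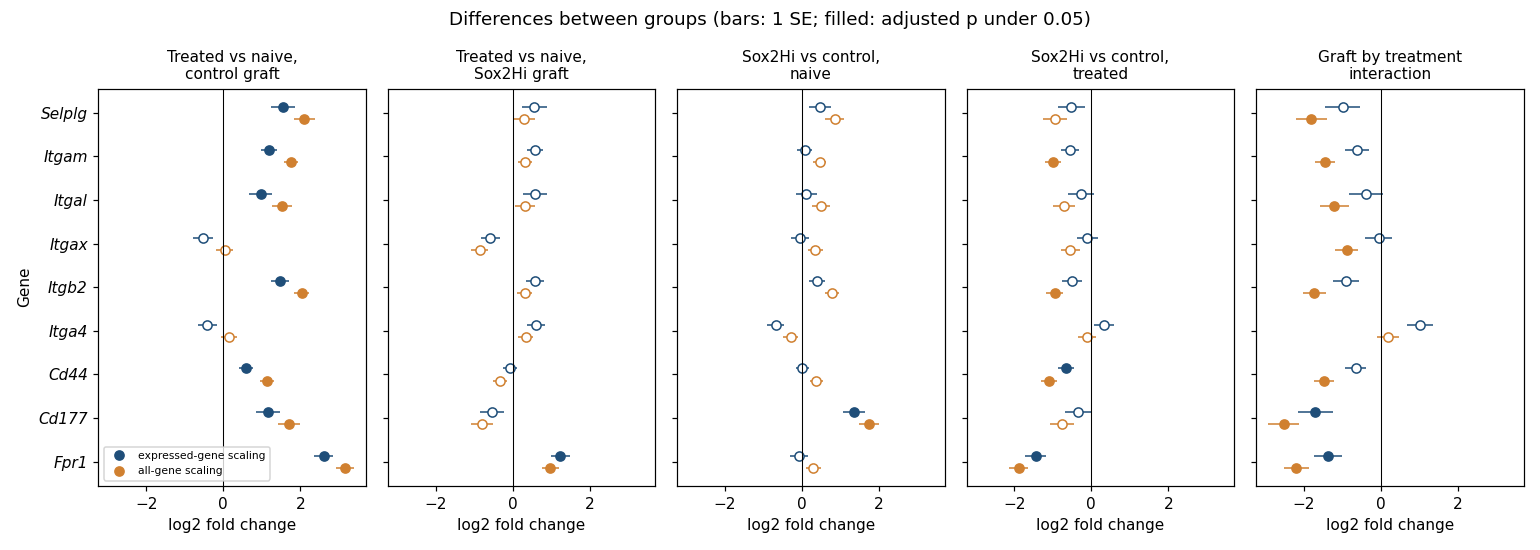
Log2 fold changes of the 9 genes in 5 comparisons, with bars of 1 SE; filled points have an edgeR adjusted p under 0.05 and colours give the scaling. On the scaling from expressed genes 7 points are filled for treatment in control grafts and 1 for treatment in Sox2Hi grafts; the all-gene scaling moves the interaction of all 9 genes downward.

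Selplg encodes PSGL-1, the main ligand with which neutrophils bind P-selectin (chromosome 5, 113818536 to 113832644 in GRCm38, minus strand). It was at 118, 174 and 102 CPM in the control naive libraries and at 518 and 251 CPM in the control treated ones. Both treated libraries lay above all naive ones, and the first treated library was the highest of the 10. The log2 difference was 1.55 (SE 0.32, edgeR adjusted p = 0.0021). In Sox2Hi grafts it was at 227, 181 and 137 CPM naive and 288 and 249 CPM treated, again with no overlap. This difference of 0.57 (SE 0.32) was not called (edgeR adjusted p = 0.20). Neither the graft difference in naive (0.46, SE 0.29) nor in treated libraries (-0.52, SE 0.35) was called, and the interaction was -0.98 (SE 0.45, edgeR adjusted p = 0.16). The interaction was called on the all-gene scaling (-1.80, adjusted p = 0.0094), by DESeq2 (-1.21, adjusted p = 0.036) and without control treated 2 (-1.62, adjusted p = 0.028).

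Cd44 encodes a hyaluronan receptor that also serves as an E-selectin ligand (chromosome 2, 102811141 to 102901665, minus strand). It read 1468, 1401 and 1228 CPM in control naive and 1972 and 2119 CPM in control treated libraries. The groups stood apart, with a log2 difference of 0.58 (SE 0.18, edgeR adjusted p = 0.019), which was 0.51 (adjusted p = 0.057) without control naive 3. In Sox2Hi grafts the naive values of 1598, 1216 and 1289 CPM and the treated values of 1139 and 1473 CPM overlapped (-0.07, SE 0.19, edgeR adjusted p = 0.81). Both Sox2Hi treated libraries were below both control treated ones, by -0.65 (SE 0.21, edgeR adjusted p = 0.047). That call was lost without control naive 1, Sox2Hi naive 2 or 3, Sox2Hi treated 1 or either control treated library, with log2 differences from -0.79 to -0.47 and adjusted p-values from 0.063 to 0.28. It was also lost without the filter (-0.65, adjusted p = 0.056), with the 2 groups alone (-0.66, adjusted p = 0.11) and with background subtracted (-0.64, adjusted p = 0.082). The interaction was -0.65 (SE 0.26, edgeR adjusted p = 0.11) and was called on the all-gene scaling (-1.47, adjusted p = 0.0050). It was also called by DESeq2 (-0.89, adjusted p = 0.0075), with RLE factors (-0.89, adjusted p = 0.039), with TMM factors and totals over all genes (-0.85, adjusted p = 0.040) and without Sox2Hi treated 2 (-1.04, adjusted p = 0.036).

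Itgb2 encodes CD18, the beta chain that every beta2 integrin needs to reach the surface (chromosome 10, 77530252 to 77565708, plus strand). Its control naive libraries held 142, 194 and 122 CPM and its control treated ones 510 and 336 CPM. Treatment was followed by a rise of 1.47 on the log2 scale (SE 0.23, edgeR adjusted p = 0.00067), with no overlap. The Sox2Hi libraries held 228, 200 and 168 CPM naive and 271 and 322 CPM treated. These groups too were separate, but the difference of 0.58 (SE 0.24) was not called (edgeR adjusted p = 0.097). Both Sox2Hi treated libraries were below the control treated ones (-0.51, SE 0.26, edgeR adjusted p = 0.18), a difference called on the all-gene scaling (-0.95, adjusted p = 0.021). The interaction was -0.90 (SE 0.34, edgeR adjusted p = 0.089), and it was called on the all-gene scaling (-1.72, adjusted p = 0.0048). It was also called by DESeq2 (-1.13, adjusted p = 0.014), with RLE factors (-1.13, adjusted p = 0.045), with TMM factors and totals over all genes (-1.10, adjusted p = 0.041) and with no filter (-0.90, adjusted p = 0.049). Without control naive 2 (-1.21, adjusted p = 0.018) or control treated 2 (-1.38, adjusted p = 0.027) it was called too.

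Itgam encodes CD11b, the alpha chain of Mac-1, which binds ICAM-1, fibrinogen and complement fragments (chromosome 7, 128062640 to 128118491, plus strand). Control naive libraries were at 70.6, 80.7 and 50.1 CPM and control treated libraries at 167 and 140 CPM. The treated libraries were both above the naive ones, by 1.19 (SE 0.21, edgeR adjusted p = 0.0010). In Sox2Hi grafts the values were 81.2, 72.2 and 58.1 CPM naive and 104 and 107 CPM treated. The 2 treated libraries were close to each other and above all naive ones, yet the difference of 0.58 (SE 0.21) missed the threshold (edgeR adjusted p = 0.070). Without control naive 3 it was called (0.58, adjusted p = 0.035). Between the treated grafts the log2 difference was -0.54 (SE 0.23, edgeR adjusted p = 0.12) with no overlap. It was called on the all-gene scaling (-0.99, adjusted p = 0.013) and by DESeq2 (-0.71, adjusted p = 0.035). The interaction was -0.62 (SE 0.30, edgeR adjusted p = 0.19), and it was called on the all-gene scaling (-1.44, adjusted p = 0.0053), by DESeq2 (-0.85, adjusted p = 0.048) and without control naive 2 (-0.88, adjusted p = 0.049). Exons of Itgam overlap those of the predicted gene Gm49368 on the same strand, which had at most 115 counts in a library, so reads could be split between them.

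Itgal encodes CD11a, the alpha chain of LFA-1, which binds ICAM-1 and ICAM-2 (chromosome 7, 127296260 to 127335138, plus strand). It measured 21.1, 34.2 and 19.5 CPM in control naive and 61.4 and 36.2 CPM in control treated libraries. The lower treated library stood just above the highest naive one, and the difference was 0.97 (SE 0.30, edgeR adjusted p = 0.019). It was no longer called without control naive 1 (0.86, adjusted p = 0.061), control naive 3 (0.82, adjusted p = 0.061) or control treated 1 (0.65, adjusted p = 0.14). Sox2Hi libraries were at 34.6, 26.6 and 19.6 CPM naive and 40.2 and 40.7 CPM treated, a difference of 0.59 (SE 0.30, edgeR adjusted p = 0.17). The interaction of -0.38 (SE 0.43, edgeR adjusted p = 0.59) was called on the all-gene scaling (-1.20, adjusted p = 0.036). Expected background equalled 11.9 to 13.3% of its reads in control naive and 1.94 to 3.01% in control treated libraries.

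Itgax, which encodes CD11c and is best known from dendritic cells, was not called in the fit of all 10 libraries on the scaling from expressed genes (chromosome 7, 128129547 to 128150657, plus strand). It was at 27.7, 39.9 and 22.1 CPM in control naive and 24.3 and 17.2 CPM in control treated libraries, which overlapped. The log2 difference was -0.53 (SE 0.25, edgeR adjusted p = 0.095) and took the other sign on the all-gene scaling (0.04, SE 0.22). It was called without control naive 3 (-0.70, adjusted p = 0.032). In Sox2Hi grafts the naive libraries at 30.6, 29.996 and 25.8 CPM all lay above the treated ones at 21.7 and 16.9 CPM. That difference of -0.58 (SE 0.25, edgeR adjusted p = 0.12) was below 0 on both scalings (-0.85 on the all-gene one, adjusted p = 0.058). It was called with the 2 groups alone (-0.65, adjusted p = 0.033) and without control naive 2 (-0.65, adjusted p = 0.034). Neither graft difference was called (-0.05, SE 0.22, in naive and -0.10, SE 0.28, in treated libraries), and the naive one had the other sign on the all-gene scaling (0.34). The interaction was -0.05 (SE 0.35), and -0.88 (adjusted p = 0.050, just called) on the all-gene scaling. Expected background equalled 7.43 to 7.74% of Itgax reads in naive and 3.58 to 4.64% in treated control libraries. In Sox2Hi grafts it equalled 3.95 to 4.49% (naive) and 8.58 to 10.7% (treated). The 9 dendritic cell markers summed to 0.164-0.232% of counts in the naive and 0.249-0.256% in the treated libraries of control grafts, and to 0.167-0.236% and 0.182-0.395% in those of Sox2Hi grafts, and none was at 0 throughout a group. Nearly all of that sum was H2-Ab1, an MHC class II gene that other cells also express, with means of 1770 and 3425 CPM in control and 1646 and 3303 CPM in Sox2Hi grafts. Of the 5 of these markers that were tested, 1 was called higher and 2 lower in control grafts, and none higher and 1 lower in Sox2Hi grafts. Cd209a, a lectin gene of dendritic cells, went from means of 16.7 to 0.936 CPM and from 13.3 to 1.88 CPM. The part of these cells in the Itgax level was not tested.

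Ratios of counts within a library do not depend on any scaling factor, and they are given as descriptions. There were 0.393 to 0.494 Itgax reads per Itgam read in control naive libraries and 0.123 to 0.146 in control treated ones. In Sox2Hi grafts the ratio was 0.377 to 0.445 naive and 0.159 to 0.209 treated. Naive and treated libraries were thus separate in both grafts, and relative to Itgam, and likewise to Itgb2, Itgax was lower in every treated library. On the log2 scale the Itgax to Itgb2 ratio averaged -2.37 (naive) and -4.34 (treated) in control grafts and -2.78 and -3.95 in Sox2Hi grafts. The ratio of Itgam to Itgal showed no such separation, with means of 2.75 ± 0.517 (SD, n = 3), 3.29 ± 0.814 (SD, n = 2), 2.68 ± 0.310 (SD, n = 3) and 2.60 ± 0.0263 (SD, n = 2) in the same order. Selplg reads per Itgam read averaged 1.96, 2.45, 2.55 and 2.56. The Itgal to Itgb2 ratio was 0.149 to 0.176 (naive) and 0.108 to 0.120 (treated) in control grafts, with no overlap. In Sox2Hi grafts it was 0.116 to 0.152 and 0.126 to 0.148, which overlapped. The Itgam to Itgb2 ratio was 0.411 to 0.498 in the control naive libraries and 0.345 to 0.361 in the Sox2Hi naive ones, with no overlap.

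**Figure D3:**
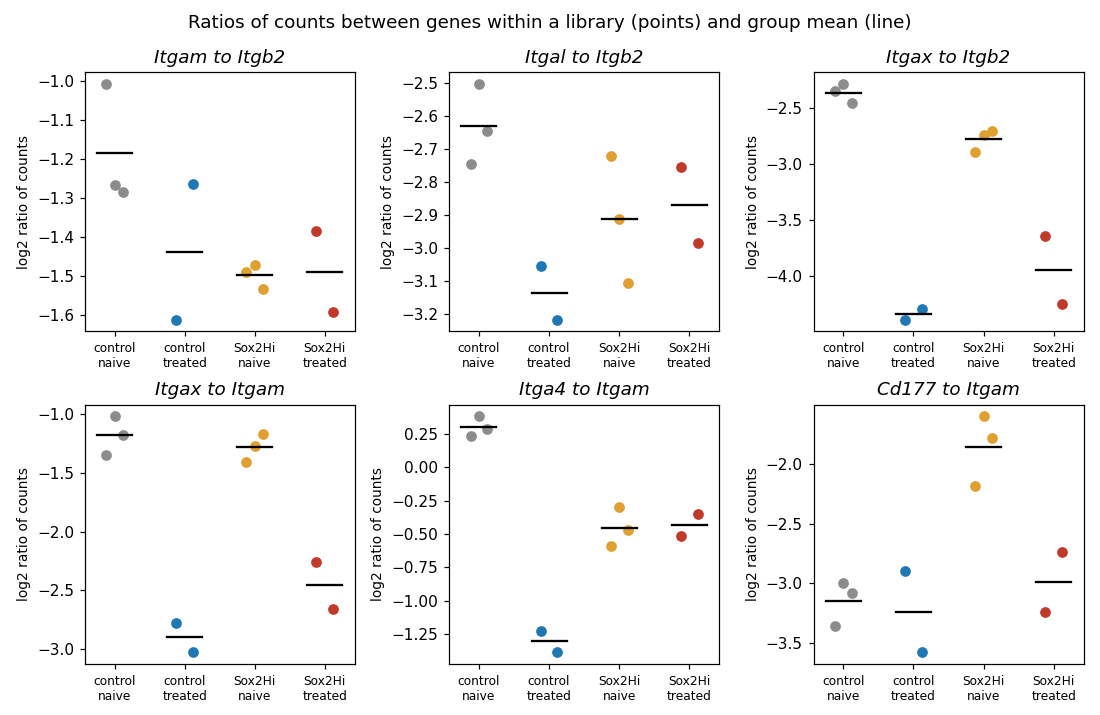
Log2 ratios of counts between pairs of the genes within each library, with 1 point per library and a line at the group mean. Itgax to Itgam and Itgax to Itgb2 are lower in every treated library than in any naive library of either graft; Itga4 to Itgam is highest in control naive and lowest in control treated libraries; Cd177 to Itgam is highest in Sox2Hi naive libraries.

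Itga4 encodes the alpha chain of VLA-4, the receptor for VCAM-1 and fibronectin (chromosome 2, 79255426 to 79333123, plus strand). The control naive libraries were at 82.9, 105 and 61.0 CPM and the control treated ones at 71.4 and 53.6 CPM, with overlap (-0.41, SE 0.24, edgeR adjusted p = 0.16; 0.16 on the all-gene scaling). The difference was called without control naive 3 (-0.59, adjusted p = 0.047). In Sox2Hi grafts it was at 53.9, 58.8 and 41.9 CPM naive and at 72.7 and 83.8 CPM treated. Here the treated libraries were the higher ones without overlap, though the difference of 0.60 (SE 0.23) was not called (edgeR adjusted p = 0.085). It was just called without control naive 3 (0.60, adjusted p = 0.050). All 3 Sox2Hi naive libraries were below all 3 control naive ones, by -0.69 (SE 0.21, edgeR adjusted p = 0.055). In the fit of the naive libraries blocked by replicate number, the difference was -0.61 and was called (edgeR adjusted p = 0.011). It was also called with no filter (adjusted p = 0.049) and without control naive 3 (adjusted p = 0.014), while on the all-gene scaling it was -0.30 (adjusted p = 0.30). The interaction was 1.01 (SE 0.34, edgeR adjusted p = 0.058), and 0.18 (adjusted p = 0.65) on the all-gene scaling. It was called with no filter (1.01, adjusted p = 0.030) and without control naive 3 (1.19, adjusted p = 0.017). Itga4 reads per Itgam read, which no scaling moves, were 1.18 to 1.30 (naive) and 0.383 to 0.428 (treated) in control grafts, and 0.663 to 0.814 and 0.701 to 0.786 in Sox2Hi grafts. Both control treated libraries were below all control naive ones, and the Sox2Hi groups overlapped. Expected background equalled 7.24 to 8.26% of Itga4 reads in naive and 3.56 to 4.32% in treated control libraries. In Sox2Hi grafts it equalled 5.87 to 8.06% (naive) and 6.28 to 7.45% (treated). Cerkl overlaps Itga4 exons on the opposite strand, with at most 64 counts in a library.

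Cd177 had its lowest level in the naive control tumours (chromosome 7, 24743983 to 24760311, minus strand). Its control naive libraries held 6.90, 10.1 and 5.93 CPM, and its control treated libraries 22.4 and 11.7 CPM. All treated values were above the naive ones, and the rise was 1.16 (SE 0.31, edgeR adjusted p = 0.0094). Without control treated 1 it was 0.74 (adjusted p = 0.093). The Sox2Hi libraries held 17.9, 23.8 and 16.8 CPM naive and 10.96 and 16.0 CPM treated. Here every treated value lay below every naive value (-0.53, SE 0.32), a difference that was not called (edgeR adjusted p = 0.23). The naive Sox2Hi libraries exceeded all naive control libraries by 1.36 (SE 0.29, edgeR adjusted p = 0.015), and by 1.74 (adjusted p = 0.036) on the all-gene scaling. The naive difference was not called with those 2 groups alone (1.40, adjusted p = 0.055). It was also lost without control naive 1 (1.29, adjusted p = 0.055), Sox2Hi naive 2 (1.19, adjusted p = 0.054) or Sox2Hi naive 3 (1.45, adjusted p = 0.067).

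The difference in response was itself tested for Cd177. The interaction was -1.70 (SE 0.45, edgeR adjusted p = 0.021), and -2.52 (adjusted p = 0.0046) on the all-gene scaling. It was not called without control naive 1 (-1.63, adjusted p = 0.052), control treated 1 (-1.34, adjusted p = 0.058) or Sox2Hi treated 1 (-1.45, adjusted p = 0.11). Cd177 had the fewest reads of the 9 in every library, at 109 to 431 counts. Expected background equalled 17.1 to 17.7% of its reads in naive and 2.30 to 4.01% in treated control libraries, and 2.95 to 4.28% and 6.70 to 10.03% in those of Sox2Hi grafts. Per Itgam read there were 0.220 to 0.329 Cd177 reads in Sox2Hi naive libraries and at most 0.150 in any library of the other 3 groups.

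Fpr1, the receptor for formylated peptides of bacteria and of damaged mitochondria, had the largest treatment difference of the 9 in both grafts (chromosome 17, 17876471 to 17883940, minus strand). It measured 156, 167 and 114 CPM in control naive and 957 and 813 CPM in control treated libraries. The treated libraries lay far above the naive ones, by 2.60 on the log2 scale (SE 0.25, edgeR adjusted p = 7.0e-05). In Sox2Hi grafts it measured 187, 123 and 104 CPM naive and 355 and 295 CPM treated. This rise of 1.24 (SE 0.25, edgeR adjusted p = 0.0091) also left no overlap, and it was 1.30 (adjusted p = 0.074) without Sox2Hi treated 2. The naive grafts overlapped (-0.08, SE 0.22, edgeR adjusted p = 0.88; 0.30 on the all-gene scaling). Treated Sox2Hi libraries were below both treated control libraries, by -1.44 (SE 0.28, edgeR adjusted p = 0.0093). The interaction was -1.37 (SE 0.35, edgeR adjusted p = 0.019), and -2.19 (adjusted p = 0.0046) on the all-gene scaling. With expected background subtracted it was -1.32 (adjusted p = 0.055), although that background equalled at most 0.492% of Fpr1 reads.

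Other genes of the same pathway were read from lists, beside the shares of all genes called given above. Values are on the scaling from expressed genes. Among 10 tested genes that build or carry selectin ligands, 5 rose and 1 fell with treatment in control grafts (median 0.44), and 1 rose and none fell in Sox2Hi grafts (median 0.42; at an unadjusted p under 0.05, 6 higher and 2 lower, and by DESeq2 1 and 2). On the all-gene scaling, 7 rose in control grafts, and 1 fell in Sox2Hi grafts. Tpst1, a tyrosine sulfotransferase that modifies PSGL-1, rose by 1.73 and 1.09. Gcnt1, which builds the core of its sugar chains, rose by 1.23 in control grafts, and B4galt1, a galactosyltransferase, fell by 0.45 there (0.09 on the all-gene scaling). The fucosyltransferases Fut4 and Fut7, which finish the selectin-binding sugar, were below the 5 CPM filter, with group means of at most 3.82 and 1.05 CPM. On the all-gene scaling neither was called in any comparison. C1galt1c1, the chaperone of a galactosyltransferase, was the 1 gene of this list with a called interaction (-0.73, SE 0.20, edgeR adjusted p = 0.022), where DESeq2 called 3 and the all-gene scaling 5, all below 0.

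Of 9 other integrin chains tested, 1 rose and 4 fell with treatment in control grafts (median -0.41), and 1 rose and 2 fell in Sox2Hi grafts (median -0.43). On the all-gene scaling, 3 rose and 5 fell of 14 tested in control grafts, and 1 fell in Sox2Hi grafts. Itgb7, a beta chain that also pairs with Itga4, rose in both (1.44 and 1.03). Itga6, a laminin receptor chain of epithelium and other cells, fell in both (-1.50 and -0.99), while Itga2 (-1.89) and Itga3 (-1.85) were called in control grafts. Itga2 also had the called interaction of this list (1.41, SE 0.42, edgeR adjusted p = 0.035; 0.60 and not called on the all-gene scaling). The all-gene scaling instead called 4 of 14 interactions below 0 and none above, and DESeq2 called 1 above and 1 below. Itgb5, a beta chain that pairs with the alpha v chain, was higher in treated Sox2Hi than in treated control libraries (0.97, SE 0.30, edgeR adjusted p = 0.042; 0.53 and not called on the all-gene scaling). Itgb1, the VLA-4 beta chain that pairs with Itga4, was higher in naive Sox2Hi than in naive control libraries (0.71, SE 0.19, edgeR adjusted p = 0.029). It fell with treatment in Sox2Hi grafts by 1.00 (SE 0.21, edgeR adjusted p = 0.012), from a mean of 588 to 294 CPM, and was at -0.41 (adjusted p = 0.11) in control grafts, where the all-gene scaling gave 0.11. Fibroblast and keratinocyte marker genes, whose cells express several of these chains, were also lower with treatment: 6 of 6 and 4 of 8 were called lower in control grafts, and 4 of 6 and 1 of 8 in Sox2Hi grafts. Their part in these differences was not tested.

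Genes that switch integrins on or signal from them rose together in control grafts, where 18 of 21 were called higher and none lower (median 1.12; at an unadjusted p under 0.05, 1 was lower, and by DESeq2 none). In Sox2Hi grafts 5 rose and 1 fell (median 0.54; at an unadjusted p under 0.05, 13 higher and 1 lower, and by DESeq2 3 and 1). On the all-gene scaling, 19 rose in control grafts, and 1 rose and 1 fell in Sox2Hi grafts. Fermt3, the kindlin that binds the beta2 tail, rose by 1.49 (SE 0.23, edgeR adjusted p = 0.00058) in control and by 0.75 (SE 0.23, edgeR adjusted p = 0.040) in Sox2Hi grafts, the latter not called on the all-gene scaling (0.49, adjusted p = 0.20). Tln1, which encodes talin, rose by 0.70 in control grafts and was at 0.33 (adjusted p = 0.18) in Sox2Hi grafts. The adaptor Fyb had the largest rise of the 21 in both grafts (2.08 and 1.65), while Ilk, an adaptor of beta1 integrins, fell in Sox2Hi grafts (-0.50). The interaction was called for none of the 21 on the scaling from expressed genes, where 7 had an unadjusted p under 0.05, all below 0. DESeq2 called 8 below 0, and edgeR on the all-gene scaling 20.

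Of 8 chemoattractant receptors tested, 5 rose in control grafts (median 1.07) and 1 in Sox2Hi grafts (median 0.49). Fpr2, a second formyl peptide receptor, rose in both, by 1.91 (SE 0.22, edgeR adjusted p = 0.00016) and 1.26 (SE 0.22, edgeR adjusted p = 0.0054). It was lower in treated Sox2Hi than in treated control libraries, by -1.03 (SE 0.25, edgeR adjusted p = 0.018), as Fpr1 was. Cxcr2, a receptor for neutrophil chemokines, rose by 0.96 in control grafts and was at 0.74 (adjusted p = 0.087) in Sox2Hi grafts. Of 15 tested partners of transmigration, 9 rose and 2 fell in control grafts (median 0.71), and 4 rose and 1 fell in Sox2Hi grafts (median 0.23; at an unadjusted p under 0.05, 6 higher and 3 lower, and by DESeq2 4 and 4). Icam1, a ligand of LFA-1 and Mac-1, rose by 1.40 and 0.72, and the collagenase gene Mmp8 by 2.58 and 1.44. In treated libraries Mmp8 (-1.40) and the tetraspanin gene Cd9 (-0.76) were lower in Sox2Hi grafts on both scalings, and Cd99l2 was higher (0.95; 0.50 and not called on the all-gene scaling). The tetraspanin gene Cd63 fell in both (-0.54 and -0.83; 0.00 in control grafts on the all-gene scaling). For the receptors the all-gene scaling called 7 higher in control and 1 in Sox2Hi grafts. For the transmigration partners it called 12 higher and 1 lower in control grafts and 1 lower in Sox2Hi grafts. Between treated grafts it called 9 of these partners lower in Sox2Hi grafts and none higher, where DESeq2 called 6 lower and 1 higher. Their interaction was called below 0 for 11 on that scaling, for 6 by DESeq2 and for none on the scaling from expressed genes. For the receptors it called 4 lower between treated grafts and 5 interactions below 0, where DESeq2 called 3 and 3. Of the endothelial ligands only Selp and Vcam1 reached the filter, and Selp, which encodes P-selectin, rose in both grafts (0.72 and 0.98). In Sox2Hi grafts it was not called on the all-gene scaling (0.71, adjusted p = 0.077).

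**Figure D4:**
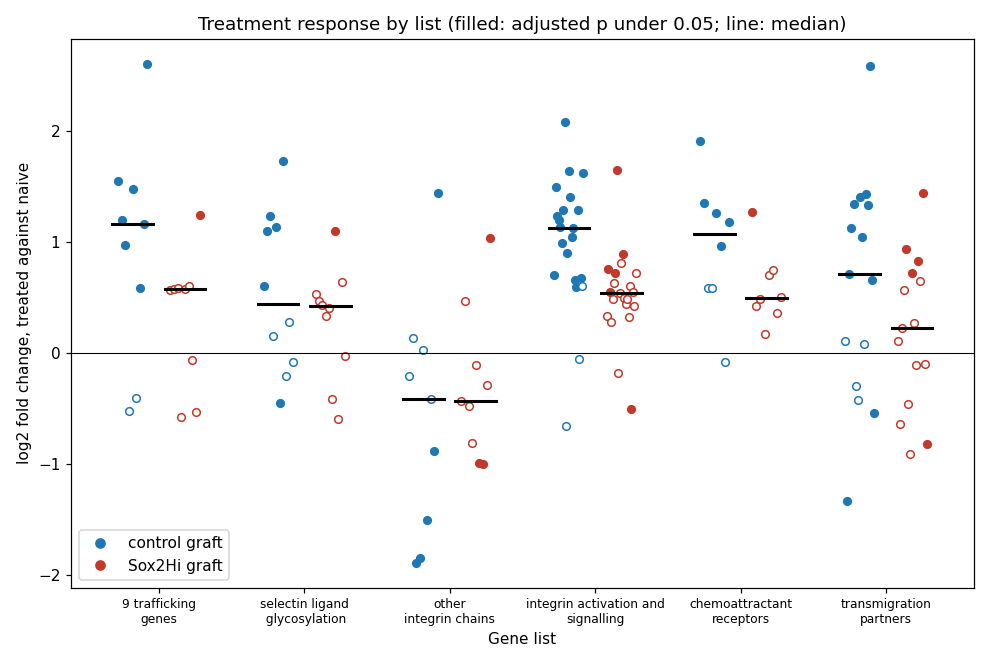
Log2 fold changes with treatment for the tested genes of each list in control and Sox2Hi grafts, with 1 point per gene, filled where the edgeR adjusted p is under 0.05, and a line at the list's median. In control grafts 18 of 21 genes of integrin activation and signalling are filled and above 0, while 4 of 9 other integrin chains are filled and below 0.

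The genes whose levels over the 10 libraries were most like those of each gene were ranked by Pearson's r of log2(CPM + 1). These values describe 10 libraries that fall into 4 groups and share the scaling, and they are not independent evidence. Nearest to Selplg were Csf3r (0.997), Fgr (0.985) and Myo1f (0.983). Nearest to Itgam were Tlr13 (0.996), Tlr4 (0.995) and Cd14 (0.994), and nearest to Itgal were Siglece (0.973), Lrrc25 (0.967) and Dennd1c (0.966). Csf3r encodes the receptor for granulocyte colony-stimulating factor, and Cd14 and Tlr4 encode parts of the receptor for bacterial lipopolysaccharide. Itgb2 was most like Tgoln1 (0.989), Atp6v1b2 (0.988) and Gsr (0.987), and Fpr1 most like Tmem38b (0.995), Il13ra1 (0.994) and Mirt2 (0.993). For Cd44 the genes were Zfp51 (0.972), Vps26a (0.972) and Atp6v1c1 (0.970). The values were lower for Cd177, whose nearest were Cers2 (0.920), Surf4 (0.916) and Cfp (0.912), and for Itgax, with Mcoln1 (0.893), Wnk1 (0.858) and Cd72 (0.816). Itga4 was nearest to Lpl (0.961), Cmah (0.941) and the vomeronasal receptor gene Vmn1r91 (0.922), 1 of the class taken as silent.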

How the data were processed

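RNA of neutrophils from grafted tumours was sequenced in 10 libraries, made with a low-input kit per the labels' protocols. The authors deposited 1 table of estimated counts per gene, with 1 column per library. The submitters' processing notes name kallisto 0.44.0 and mm10, with no role given. The annotation and strandedness are not given in the sources used here. Symbols, coordinates and exon lengths came from GENCODE M21 (GRCm38), which matched 55144 of 55385 mouse identifiers. The 96 spike-in and transgene entries, 0.000992 to 0.00277% of counts, stayed out of library sizes.

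The values were whole numbers and entered edgeR 4.0.16 (R 4.3.3, limma 3.58.1) as counts. Genes averaging 5 CPM or more (11274) were kept, TMM factors came from them, and all 10 libraries were fitted by the quasi-likelihood test with 4 groups as terms. A call is a Benjamini-Hochberg adjusted p under 0.05 over all genes tested, and SE is the size of the log2 difference over the root of its F. The common biological coefficient of variation was 0.212. Alternatives were the all-gene scaling (29648 genes), RLE factors, no filter, DESeq2 1.42.0, replicate blocks, the 2 groups alone, subtracted background and each library left out. After seeing the data 3 were added: a block in the naive libraries alone, TMM with totals over all genes, and a term for libraries with at least 100 reads of the Y-linked gene Ddx3y. Expected background is a library's median count per kb over 1464 olfactory and vomeronasal receptor genes times a gene's exon length.

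The members and lists were chosen with earlier results of these data known. All 9 genes were named whatever their result. A gene of the selectin ligand list and one of the signalling list are not reported here and were left out of the counts. From each list at most the 3 largest rises and 3 largest falls among called genes were named, besides Fut7, Fut4, Itgb1, Fermt3, Tln1, Fpr2, Cxcr2 and Icam1. Likeness used genes averaging 20 CPM or more and no Gm or Rik name. No 2 libraries of a group matched within counting noise (chi-square per degree of freedom of at least 12.5). Naive libraries of one title number deviated together (r of 0.273 to 0.474 over genes, 3 pairs), against -0.43 to 0.044 for the 6 pairs of different numbers. Deviations within a group depend on each other, so whether the numbers pair these libraries is not settled. What a number marks is not stated in the labels.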

Additional observations from a re-analysis of the deposited data

Results flagged for a closer look

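The treatment effect differed between the grafts for 2 genes by the test of the difference itself. For Cd177 the effect in Sox2Hi minus that in control grafts was -1.70 on the log2 scale (SE 0.45, edgeR adjusted p = 0.021). The effect was 1.16 in control and -0.53 in Sox2Hi grafts, and naive and treated libraries did not overlap in either graft. For Fpr1 it was -1.37 (SE 0.35, edgeR adjusted p = 0.019), with effects of 2.60 and 1.24. The Cd177 call was lost without control naive 1 (adjusted p = 0.052), control treated 1 (0.058) or Sox2Hi treated 1 (0.11), and the Fpr1 call with background subtracted (0.055). No test for a single outlying library was run in these groups of 2 or 3.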

How the results depend on the processing

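The 7 rises with treatment in control grafts and the rise of Fpr1 in Sox2Hi grafts kept their direction in all alternatives run. On the all-gene scaling, genes called became 10078 (treatment in control), 1070 (treatment in Sox2Hi), 554 (naive grafts), 4076 (treated grafts) and 8149 (interaction), and 4 and 8 of the 9 genes were called in the last 2. Signs changed there for Itgax (0.0381) and Itga4 (0.16) with treatment in control grafts, Itgax (0.34) and Fpr1 (0.30) between naive grafts and Itga4 (-0.12) between treated grafts. Without a filter, 15968 genes were called for treatment in control grafts, 3027 (2 of the 9) between naive grafts, 4319 (1 of the 9) between treated grafts and 10690 (4 of the 9) for the interaction. With background subtracted the last 3 were 812, 911 (1 of the 9) and 1305 (1 of the 9). With the 2 groups alone they were 18 (0 of the 9; unadjusted p under 0.05 for 3104 genes) between naive and 835 (1 of the 9) between treated grafts, and 2 of the 9 were called for treatment in Sox2Hi grafts. For the interaction DESeq2 called 3355 genes and 6 of the 9, while RLE factors and TMM with totals over all genes called 4 of the 9 each. Between naive grafts Itgax was at 0.0167 with DESeq2, 0.0168 with RLE factors and 0.0340 with those totals, where Fpr1 was at 0.00842. Cd44, at 0.00250 there, was at -0.00371 with the Ddx3y term and at -0.0334 with background subtracted. The Ddx3y term changed no call among the 9. The cause of these changes was not tested.

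Naive libraries of one replicate number deviated together, and a block by number in the naive libraries alone called 2478 genes and 2 of the 9 between naive grafts (Itgax 0.0366). Naive and treated libraries of one title number correlated from -0.28 to 0.25 over 8 pairs. These values were 0.15 to 0.25 with control treated and -0.28 to 0.085 with Sox2Hi treated libraries. In a treated group of 2 libraries the deviations from the group mean mirror each other. The values thus cannot decide whether the numbers pair naive with treated libraries. For treatment in control grafts the title number as a block in all libraries called 7 of the 9 higher and 2 lower (Itgax -0.65, edgeR adjusted p = 0.037; Itga4 -0.55, 0.030), and the description number 7 and 1 (Itgax -0.50, 0.043). The Itga4 interaction was called under both (0.99, edgeR adjusted p = 0.018, and 1.17, 0.014). With the title number as a block 2 of the 9 were called between naive grafts, as with the description number. The title block called Itgam between treated grafts (-0.54, edgeR adjusted p = 0.032). The description block called 6 of the 9 for treatment in Sox2Hi grafts (Selplg, Itgam, Itgal, Itgb2, Itga4 and Fpr1) and 1 between treated grafts, where Cd44 was lost (adjusted p = 0.074). Under it Cd44 between naive grafts was at -0.00270, Itgax and Cd177 between treated grafts at 0.0240 and 0.0572, and the Itgax interaction at 0.0397.

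Leaving out each library in turn gave 4875 to 6716 genes and 5 to 7 of the 9 for treatment in control grafts, with 5 higher and 2 lower without control naive 3. It gave 199 to 3317 genes and 0 to 3 of the 9 for treatment in Sox2Hi grafts, fewest without Sox2Hi treated 2 (more than 1.5 times fewer also without Sox2Hi treated 1 or Sox2Hi naive 2 or 3). Between naive grafts it gave 4 to 1997 genes and 0 to 2 of the 9, fewest genes without Sox2Hi naive 3 (more than 1.5 times fewer also without Sox2Hi naive 1 or 2, control naive 1 or 2, or Sox2Hi treated 2). Between treated grafts it gave 284 to 2899 genes and 1 to 2 of the 9, fewest genes without control treated 2 (more than 1.5 times fewer without any of the treated libraries). For the interaction 1 to 4 of the 9 were called. Log2 values ran from -0.32 to 0.11 for Cd44 with treatment in Sox2Hi grafts. Between naive grafts they ran from -0.10 to 0.31 for Itgam, -0.11 to 0.49 for Itgal, -0.23 to 0.29 for Itgax, -0.12 to 0.10 for Cd44 and -0.36 to 0.11 for Fpr1. Between treated grafts they ran from -1.07 to 0.00215 for Selplg, -0.73 to 0.064 for Itgal, -0.46 to 0.076 for Itgax and -0.86 to 0.10 for Cd177, and from -0.49 to 0.13 for the Itgax interaction. Groups left with 1 library were taken to vary like the others.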
